A study of Mus musculus with 8 samples.

Results

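NK cells of the spleen were compared between Ccl5-PE knockout mice (KO) and wild-type mice (WT) in 4 of the 8 RNA-seq libraries of the series, namely the 2 libraries labelled as spleen WT and the 2 labelled as spleen KO. The other 4 libraries are lung NK cells of the same genotypes; they enter the same fit, which estimates the spread between libraries over all 8, and are otherwise used to show where spleen differed. Ccl5-PE is the proximal enhancer of Ccl5, and the KO mice (Ccl5 ΔPE/ΔPE) carry a CRISPR deletion of it, made with a pair of guide RNAs. The mice were C57/Bl6 young adults of both sexes by the study's methods, but the spleen libraries held next to no Y-linked RNA (values below). WT and KO lines were housed and bred separately, so the deletion and any other difference between the lines cannot be told apart. Cells were sorted as CD45+ TCRb- NK1.1+ and lysed without culture, so the gate was set on the product of Klrb1c (NK1.1) and on the absence of a T cell receptor chain. The sources do not state if a genotype's 2 libraries are from different mice, and the p-values therefore measure only the spread between libraries, which may be technical.

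CCL5 (RANTES) is a chemokine that attracts T cells, monocytes and NK cells, and NK cells hold its mRNA at rest. NK cells kill through granules loaded with perforin and granzymes, and they decide what to kill by balancing activating receptors against inhibitory receptors that recognise MHC class I. In spleen they circulate through the red pulp and mature from CD27-positive to CD11b-positive cells under IL-15 and the transcription factors T-bet and Eomes. AP-1 factors and other immediate early genes respond within minutes to signals from cell surface receptors.

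The WT libraries held 3882458 and 8299635 reads on genes and the KO libraries 3132963 and 26482366, so KO library 2 was the deepest and KO library 1 the shallowest. Values are given in CPM, the reads of a gene scaled to a common library size. Between replicates the variance of a gene was on average 1.43 times the counting variance in WT (10039 genes) and 1.44 times in KO (11462 genes). The coefficient of variation beyond counting, estimated over the spleen and lung libraries together, was 2.50%. For every 100 uniquely aligned reads the KO libraries had 49.8 and 49.4 reads that aligned to several places, against 45.3 and 44.5 in WT, and the part of this in the results was not tested. The 15 markers of NK cells summed to 43110 and 42360 CPM in WT and to 57270 and 54580 CPM in KO. Of 29 myeloid markers, 12 were at 0 in every spleen library, C1qa, Adgre1, S100a8 and Mpeg1 among them, and the list summed to between 16.0 and 19.4 CPM. T cell markers summed to 1173 and 1180 CPM in WT and 1359 and 1314 CPM in KO, most of it from Cd3 genes, Trbc1 and Trdc, and Cd4 was at 0.4996 and 0.234 CPM in WT and 0 and 0.115 CPM in KO. Cd8a, a chain of the CD8 coreceptor, was at 2.25 and 0.935 CPM in WT and at 0 in both KO libraries, as were Themis (1.25 and 1.05 CPM in WT) and Cd5 (0.4996 and 0.351 CPM in WT), and the part of these cells in the results was not tested. Cd3e itself was at 32.0 and 32.5 CPM in WT and 7.51 and 11.1 CPM in KO, while Cd3d and Cd3g did not pass the test. Of the T cell markers tested, 4 were higher in KO and 1, Cd3e, was lower, with a median log2 fold change of 0.08. Trbc1 rose from 270 and 260 CPM to 339 and 328 CPM, and Trdc from 338 and 354 CPM to 431 and 408 CPM. The counts were 4 higher and 3 lower with an offset for GC content, and 2 and 2 with an offset for gene length. B cell markers summed to 1054 and 1067 CPM in WT and 1322 and 1285 CPM in KO. The Y-linked genes Ddx3y, Kdm5d and Uty were at 0 in every spleen library, as in female mice. Y-linked Eif2s3y was at 0.117 CPM in WT library 2 and at 0 in the others. A change in the share of a cell type and a change of RNA within a cell cannot be told apart in such bulk samples.

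Ccl5 was 6.35-fold lower in spleen NK cells of KO mice. The gene (chr11:83525778-83530518 in GRCm38, minus strand) was at 16679 and 15664 CPM in WT and at 2676 and 2432 CPM in KO. The KO libraries lay far below both WT libraries and yet kept Ccl5 among the abundant mRNAs. The log2 fold change was -2.67 ± 0.04 (SE, n = 2 per group), with an adjusted p of 1.4e-35 in edgeR's quasi-likelihood test across 12595 genes. With 2 libraries against 2, an exact permutation test of a single gene cannot go below p = 0.333, so every call here rests on the fit across all genes. Heatr9 (chr11:83511736-83522175), the gene just downstream of Ccl5, moved with it. It was at 16.0 and 16.8 CPM in WT and 2.29 and 2.76 CPM in KO, which is 6.09-fold lower (log2 fold change -2.61 ± 0.19, adjusted p = 2.1e-14).

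On the other side of Ccl5, 4 chemokine genes rose. Ccl9 (chr11:83572919-83578636), a ligand of CCR1 better known from myeloid cells, was at 14.5 and 13.9 CPM in WT and 35.9 and 32.3 CPM in KO (log2 fold change 1.22 ± 0.11, adjusted p = 1.0e-11). Ccl6, a further CCR1 ligand, was at 1.75 CPM in both WT libraries and at 4.57 and 4.33 CPM in KO (log2 fold change 1.31 ± 0.31). Both thus more than doubled from a low level. Ccl3, an inflammatory chemokine that signals through CCR1, went from 126 and 143 CPM to 211 and 204 CPM (log2 fold change 0.59 ± 0.06). Ccl4, an inflammatory chemokine of activated NK cells, went from 182 and 184 CPM to 241 and 226 CPM (log2 fold change 0.33 ± 0.05). Xcl1, the chemokine that draws cross-presenting dendritic cells and lies outside this cluster, also rose (61.2 and 60.4 against 87.2 and 79.9 CPM; log2 fold change 0.42 ± 0.07). With an offset for gene length the changes of Ccl3, Ccl4 and Xcl1 were 0.32, 0.04 and 0.11, and those of Ccl4 (adjusted p = 0.51) and Xcl1 (adjusted p = 0.17) did not pass. Of the 14 genes tested around the deletion, 5 were higher and 3 lower in KO, where 28.2% and 28.9% of all 12595 genes were.

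Upstream sequences of Heatr9 and Ccl9 are shown because these neighbours of the deleted enhancer moved in opposite directions. They are RefSeq promoter sequences (GRCm38.p6, minus strand), 170 bases from 250 to 81 bases before the start that RefSeq annotates, at chr11:83522180-83522349 for Heatr9 and chr11:83578717-83578886 for Ccl9. For Heatr9 that start, at position 83522099, lies inside the GENCODE gene given above, whose own start is nearer to the window. Capitals mark the AP-1 motif TGAGTCA, searched on both strands together with the RUNX motif TGTGGT.
Heatr9: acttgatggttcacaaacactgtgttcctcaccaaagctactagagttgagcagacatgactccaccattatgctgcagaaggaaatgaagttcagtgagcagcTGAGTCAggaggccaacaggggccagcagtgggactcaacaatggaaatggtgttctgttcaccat
Ccl9: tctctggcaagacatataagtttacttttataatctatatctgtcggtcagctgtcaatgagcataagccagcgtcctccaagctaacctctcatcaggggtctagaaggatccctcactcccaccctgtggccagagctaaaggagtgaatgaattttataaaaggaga
The Heatr9 window held 1 AP-1 motif, 146 to 140 bases before the RefSeq start, and no RUNX motif, and the Ccl9 window held neither. Over windows of the same length of 27025 genes, 2.97% held the AP-1 motif and 9.8% the RUNX motif. A match describes these letters and no binding.

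**Figure D1:**
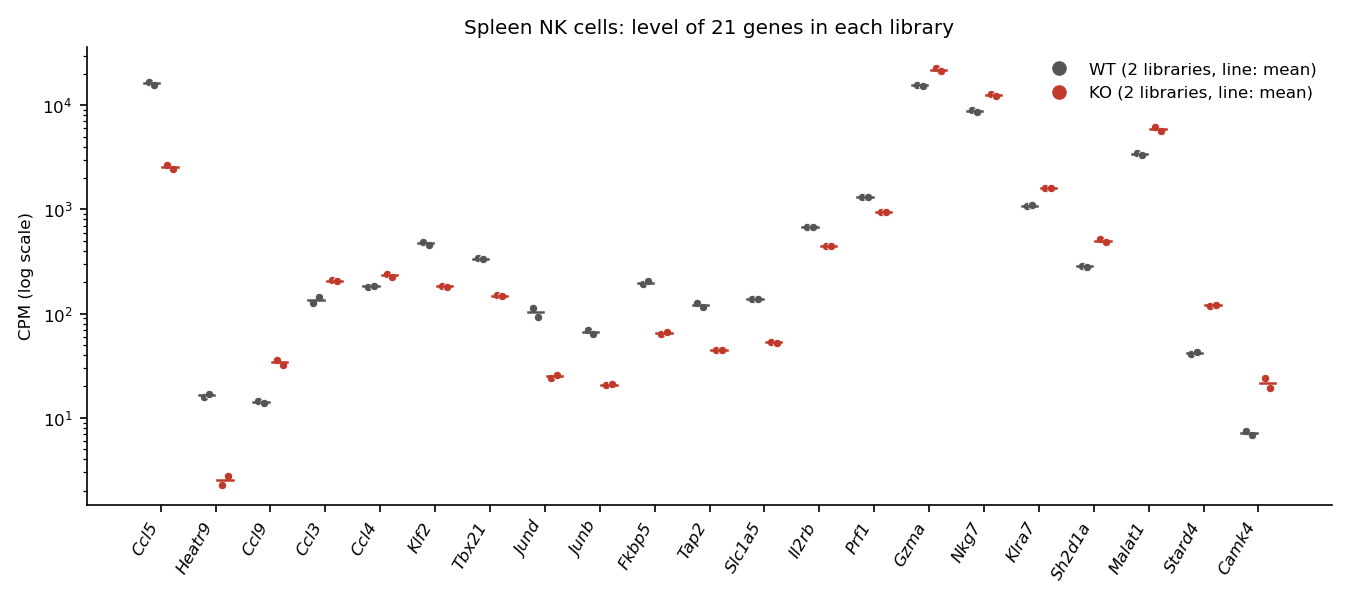
CPM of 21 genes (log axis) in each spleen library, WT in grey and KO in red, with a line at the mean of the 2 libraries. Ccl5 and Heatr9 are 6.35-fold and 6.09-fold lower in KO. The 21 genes were picked with the values known, and in none do WT and KO libraries overlap. Of all genes tested, 36.4% had both KO libraries above both WT libraries and 37.4% had both below.

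Across the transcriptome, 7195 of 12595 genes (57.1%) were called at a false discovery rate (FDR) below 0.05, 3550 higher (28.2%) and 3645 lower (28.9%) in KO. Most of these changes were small. Changes past an FDR of 0.001 and 2-fold were seen for 986 genes (7.83%), of which 327 (2.6%) were higher and 659 (5.23%) lower, and in 9 of the 986 the WT and KO libraries overlapped. The change followed the GC content of the gene. The median log2 fold change went from 0.16 in the sixth of genes with the lowest GC content to -0.25 in the sixth with the highest (Spearman correlation -0.27 over 12490 genes, which share these 4 libraries). Within a genotype, library 2 against library 1 went only from 0.05 to -0.05 in WT and from 0.03 to -0.01 in KO. An offset that removed each library's trend with GC content left 7027 genes called. Without KO library 2 the count was 4448, and with library totals in place of scaling factors 2968 genes were called higher and 4237 lower.

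**Figure D2:**
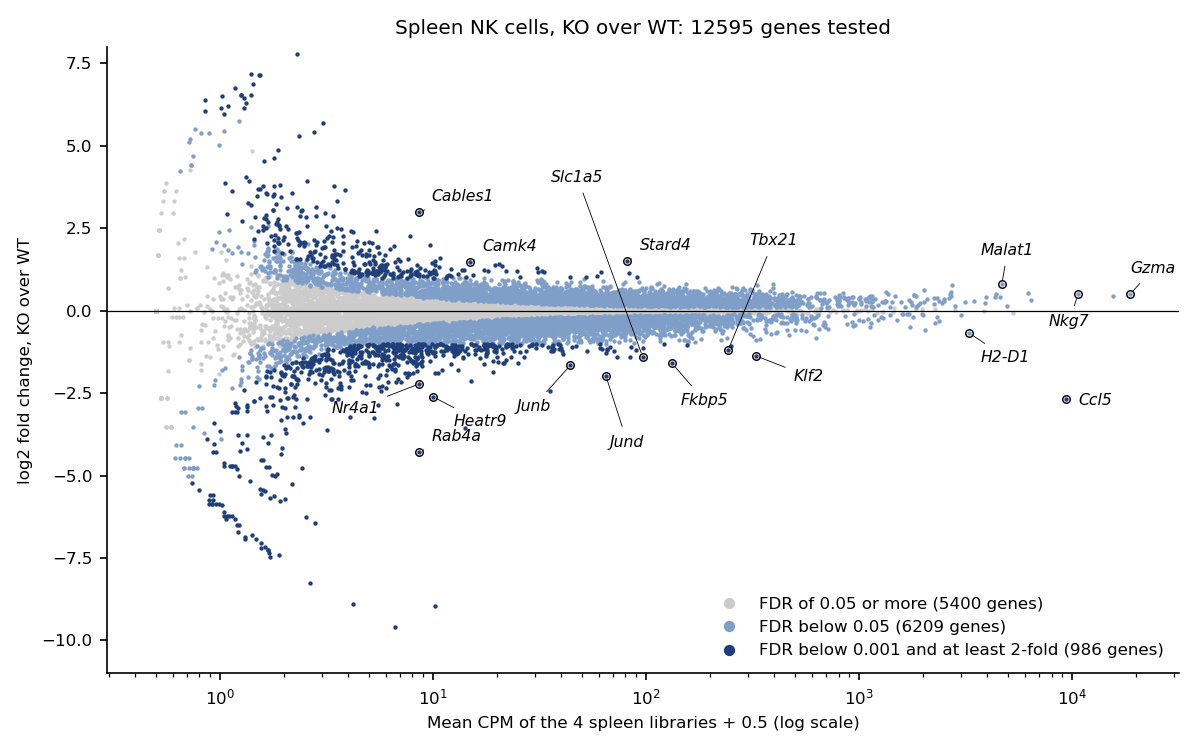
Log2 fold change, KO over WT, against the mean CPM of the 4 spleen libraries plus 0.5 (log axis) for 12595 genes, coloured by call. Ccl5 stands alone among abundant mRNAs at -2.67, and the points at the far left with very large folds are genes with no or few reads in 1 genotype, where the fitted fold depends on the prior count.

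**Figure D3:**
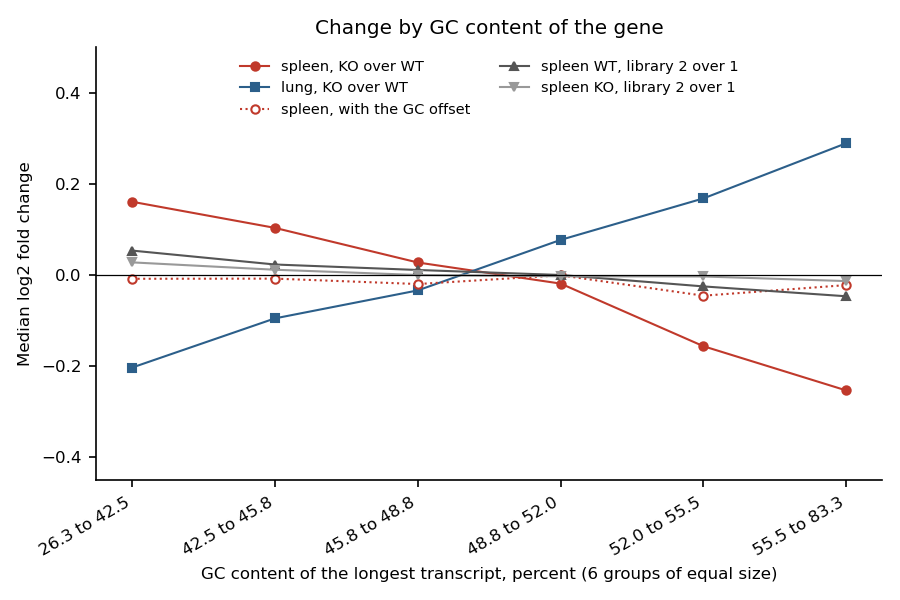
Median log2 fold change in 6 equal groups of genes by GC content, for KO over WT in spleen and in lung, for spleen with the GC offset, and for library 2 over library 1 within each spleen genotype. Spleen slopes down from 0.16 to -0.25, lung slopes up from -0.20 to 0.29, and the replicate lines stay between -0.05 and 0.05.

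Of 41 lineage and maturation factors, 19 were lower and 12 higher in KO, with a median log2 fold change of -0.07 against 0.00 over all genes. Over all genes tested 28.2% were higher and 28.9% lower, which is the background for this and every later spleen list. Klf2, which keeps lymphocytes quiescent and lets them leave tissues, was at 489 and 453 CPM in WT and 185 and 180 CPM in KO (log2 fold change -1.37 ± 0.05, adjusted p = 2.7e-24). Tbx21, which encodes T-bet, was at 341 and 331 CPM in WT and 150 and 147 CPM in KO (log2 fold change -1.18 ± 0.05, adjusted p = 5.1e-22). Both fell more than 2-fold, and with the GC offset the changes were -1.03 and -0.91. Eomes, the relative of Tbx21, was by contrast slightly higher, at 200 and 203 CPM in WT and 225 and 223 CPM in KO (log2 fold change 0.15 ± 0.05). Bach2, a repressor of effector genes, fell from 43.5 and 52.3 CPM to 23.83 and 24.02 CPM, and Bhlhe40 fell by 0.55 on the log2 scale. Zeb1, a transcriptional repressor, rose from 43.5 and 47.0 CPM to 66.6 and 68.3 CPM, and Mef2c rose by a log2 fold change of 0.36. Eomes and Mef2c had changes of 0.26 and 0.19 with the GC offset.

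Of 45 AP-1 subunits and other immediate early genes, 26 were lower in KO, 4 were higher and 15 did not pass the test. In this list 11 passed the stricter call, all lower, with a median log2 fold change of -0.27; with the GC offset the counts were again 26 and 4. Junb, an AP-1 subunit, was at 70.2 and 63.0 CPM in WT and 20.6 and 20.9 CPM in KO (log2 fold change -1.65 ± 0.08, adjusted p = 2.0e-18). Jund was at 114 and 93.1 CPM in WT and 24.2 and 25.9 CPM in KO (log2 fold change -1.97 ± 0.08). Its reads cannot be told apart from those of Gm11175, an antisense gene within it that fell by 2.43 on the log2 scale, because the strand setting of the counting is not given in the sources used here. Jun was at 8.74 and 7.48 CPM in WT and 1.96 and 3.03 CPM in KO (log2 fold change -1.44 ± 0.21). Fos did not pass the test, at 2.50 and 2.69 CPM in WT and 1.96 and 2.30 CPM in KO (adjusted p = 0.57). Dusp1, a phosphatase that ends MAP kinase signals, fell from 26.7 and 21.7 CPM to 4.24 and 5.48 CPM (log2 fold change -2.13 ± 0.14). Nr4a1, an orphan nuclear receptor induced by receptor signals, fell from 13.5 and 14.1 CPM to 1.63 and 3.14 CPM (log2 fold change -2.22 ± 0.20). Ier2 and Zfp36, which encodes an mRNA decay factor, fell by 0.89 and 0.72. Among the 4 members that rose were the AP-1 subunits Fosl2 and Batf, by 0.69 and 0.37, and Mcl1, a survival factor of NK cells, from 158 CPM in both WT libraries to 192 and 204 CPM. With the GC offset the changes of Ier2 and Batf were -0.57 and 0.56, and with the length offset that of Batf was 0.15 (adjusted p = 0.09).

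Among 12 Ly49 genes, which encode receptors of MHC class I, 8 were higher and 1 lower, with a median log2 fold change of 0.45. Among 26 NKG2, NKR-P1 and other NK receptors, 20 were higher and 2 lower, with a median of 0.28. These genes have a low GC content (medians of 40.0% and 43.1% against 48.8% over all genes tested), and with the GC offset the counts were 7 higher and 2 lower, and 16 higher and 4 lower, with medians of 0.27 and 0.14. Klra7 (Ly49G) was at 1076 and 1093 CPM in WT and 1599 and 1601 CPM in KO (log2 fold change 0.56 ± 0.04, adjusted p = 1.2e-15). Klra8 (Ly49H), the receptor of a cytomegalovirus protein, was at 538 and 567 CPM in WT and 859 and 766 CPM in KO. Their log2 fold changes were thus similar, 0.56 and 0.53. Klra9 was the member that fell, from 972 and 974 CPM to 954 and 867 CPM (log2 fold change -0.11 ± 0.04). Ly49 genes are near copies of each other, so reads may be split between them. Klrd1 (CD94), the partner of NKG2A, was at 1271 and 1237 CPM in WT and 1708 and 1696 CPM in KO (log2 fold change 0.44 ± 0.04). Klre1 rose by 0.49, and Ncr1 (NKp46), an activating receptor, went from 2801 and 2877 CPM to 3456 and 3428 CPM (log2 fold change 0.28 ± 0.03). Klrk1 (NKG2D) was at 3082 and 3162 CPM in WT and 3842 and 3813 CPM in KO, a log2 fold change of 0.29 ± 0.03 that came to 0.04 with the GC offset (adjusted p = 0.24). Klrb1c, the gene of the sorting marker NK1.1, went from 3588 and 3612 CPM to 4186 and 4238 CPM. Cd226 (DNAM-1) and Lilr4b fell by 0.23 and 0.41. With the GC offset the changes were 0.34 for Klra8, -0.31 for Klra9, 0.21 for Klrd1, 0.30 for Klre1, 0.15 for Ncr1, 0.14 for Klrb1c and -0.46 for Cd226.

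Of 31 adaptor and proximal kinase genes, 16 were lower and 8 higher. Fcer1g, the adaptor of NKp46 and CD16, was at 2301 and 2137 CPM in WT and 3238 and 3047 CPM in KO (log2 fold change 0.50 ± 0.04). Tyrobp (DAP12), the adaptor of activating Ly49 receptors, was at 1831 and 1683 CPM in WT and 2183 and 1998 CPM in KO (0.25 ± 0.04). Sh2d1a (SAP) and Sh2d1b1 (EAT-2), the adaptors of SLAM receptors, rose by 0.81 and 0.62, Sh2d1a from 288 and 281 CPM to 520 and 483 CPM. Zap70, the kinase that binds phosphorylated adaptors, fell from 134 and 132 CPM to 73.5 and 84.6 CPM (log2 fold change -0.68 ± 0.06). Plcg2, the phospholipase of the pathway, fell from 112 and 113 CPM to 85.2 and 81.5 CPM. With the GC offset the changes of Tyrobp and Zap70 were 0.39 and -0.40, while with the length offset those of Fcer1g and Tyrobp were 0.21 and -0.07, the latter with an adjusted p of 0.09.

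Of 22 genes of the cytotoxic granules and of their release, 9 were higher in KO, 6 were lower and 7 did not pass the test, and with the GC offset 8 were higher and 8 lower. Gzma (granzyme A), the most abundant of them, was at 15694 and 15278 CPM in WT and 22854 and 21128 CPM in KO (log2 fold change 0.51 ± 0.04, adjusted p = 1.4e-14). Nkg7, a granule membrane protein needed for degranulation, went from 9001 and 8674 CPM to 12719 and 12165 CPM (0.49 ± 0.03). Gzmm rose by 0.87 and Cma1, a chymase, by 0.34. Gzmb (granzyme B) did not pass the test, at 1422 and 1413 CPM in WT and 1495 and 1488 CPM in KO (adjusted p = 0.068). Perforin (Prf1), the pore former, was lower, at 1303 and 1320 CPM in WT and 939 and 938 CPM in KO (log2 fold change -0.48 ± 0.04, adjusted p = 1.3e-13). Stxbp2 (Munc18-2) and Stx11, a pair of fusion proteins whose loss causes familial haemophagocytic disease, fell by 0.98 and 0.77, Stxbp2 from 117 and 114 CPM to 59.4 and 58.0 CPM. Lamp1, whose protein CD107a serves as a marker of degranulation, fell from 212 and 204 CPM to 138 and 144 CPM. The level of its mRNA does not measure degranulation. With the length offset the changes of Gzma, Nkg7 and Cma1 were 0.28, 0.24 and 0.14.

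Of 12 death ligands and cytokines, 3 were higher and 3 lower. Fasl, the ligand of the death receptor Fas, rose from 646 and 682 CPM to 879 and 885 CPM (log2 fold change 0.41 ± 0.04). Ifng, the macrophage-activating cytokine, rose from 83.4 and 78.8 CPM to 109 and 113 CPM (0.48 ± 0.06). Osm (oncostatin M) fell from 29.7 and 30.6 CPM to 15.3 and 14.6 CPM (-1.05 ± 0.11). Ltb (lymphotoxin beta), of high GC content, fell from 292 and 253 CPM to 207 and 203 CPM (-0.39 ± 0.05), a change of -0.07 with the GC offset (adjusted p = 0.19).

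Of 15 chemokine and S1P receptors, which place NK cells in tissues, 8 were lower and 4 higher, with a median log2 fold change of -0.36. The S1P receptors were split. S1pr1, through which lymphocytes leave tissues, was at 84.7 and 78.6 CPM in WT and 143 and 141 CPM in KO (log2 fold change 0.81 ± 0.06, adjusted p = 5.3e-14). S1pr5, the receptor with which NK cells leave bone marrow and lymph nodes, was at 217 and 209 CPM in WT and 149 CPM in both KO libraries (-0.51 ± 0.05). S1pr4 fell from 82.2 and 79.8 CPM to 39.2 and 43.4 CPM (-0.92 ± 0.07). Ccr2, a receptor of inflammatory chemokines, rose from 903 and 1004 CPM to 1236 and 1294 CPM (0.41 ± 0.04). S1pr5 and Ccr2 had changes of -0.30 and 0.21 with the GC offset. Ccr7, the lymph node homing receptor, fell from 6.99 and 7.83 CPM to 1.31 and 1.34 CPM (-2.48 ± 0.27). Gpr183, a receptor of oxysterols, fell by 1.21 and Cx3cr1 (fractalkine receptor) by 0.35. Among 32 integrin and adhesion genes, 14 were lower and 11 higher. Itgb2 (the CD18 chain of LFA-1) fell from 2427 and 2448 CPM to 1600 and 1661 CPM (-0.58 ± 0.04), Fermt3 (kindlin-3), which activates integrins, fell by 0.78, and Selplg (PSGL-1) by 0.50. Cd2, an adhesion receptor of the synapse, rose from 1544 and 1489 CPM to 2126 and 2074 CPM, and Itga2 (CD49b), a marker of mature NK cells, rose by 0.53.

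Of 18 genes higher in CD27-positive immature NK cells, 10 were higher and 5 lower, and of 20 genes higher in CD11b-positive mature cells, 6 were higher and 8 lower. Cd27 itself rose from 188 and 176 CPM to 225 and 233 CPM, and Ctla2a rose from 257 and 233 CPM to 433 and 408 CPM. Kit, the stem cell factor receptor of early NK cells, fell from 57.0 and 56.7 CPM to 21.2 and 24.7 CPM (log2 fold change -1.23 ± 0.09, adjusted p = 1.4e-14). Among 13 markers of the related ILC1 cells, 3 were higher and 4 lower, or 1 and 8 with the GC offset, with Itga1 (CD49a) at 9.24 and 8.53 CPM in WT and 2.29 and 3.83 CPM in KO, and Inpp4b, a lipid phosphatase, at 6.49 and 10.3 CPM in WT and 1.63 and 1.80 CPM in KO. Xcl1, also in this list, went the other way, from 61.2 and 60.4 CPM to 87.2 and 79.9 CPM. Its log2 fold change was 0.42, or 0.11 with the length offset (adjusted p = 0.17). Summed over the 14 ILC1 markers in the files, the level was 466.6 and 480.3 CPM in WT and 454.4 and 448.2 CPM in KO.

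Of 27 genes of the IL-2 and IL-15 pathway, 14 were lower and 2 higher, with a median log2 fold change of -0.35, or -0.18 with the GC offset. Il2rb (CD122), the chain through which IL-15 keeps NK cells alive, was at 676 CPM in both WT libraries and at 442 and 444 CPM in KO (-0.61 ± 0.04, adjusted p = 1.3e-15). The common gamma chain Il2rg moved the other way, from 1854 and 1788 CPM to 2380 and 2320 CPM (0.37 ± 0.03). Socs1, a feedback inhibitor induced by these cytokines, fell from 32.0 and 27.8 CPM to 6.20 and 8.35 CPM (-1.85 ± 0.13), and Cish, a further feedback inhibitor, fell by 0.70. Stat3 and Pim2 fell by 0.36 and 0.57. A list of 25 genes covered IL-12, IL-18, IL-21 and IL-10 receptor signalling and included the interferon receptor gene Ifnar1. Of these, 17 were lower and 2 higher, or 8 and 2 with DESeq2. Myd88, the adaptor of the IL-18 receptor, fell from 112 and 107 CPM to 83.6 and 82.0 CPM, and Ifnar1, a chain of the interferon receptor, fell by 0.73. The 2 that rose were Il18r1, from 106 and 113 CPM to 158 and 151 CPM, and Irak4, the kinase below MYD88, from 38.5 and 36.6 CPM to 85.9 and 83.0 CPM (1.17 ± 0.08).

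Of 24 NF-kappaB subunits and inhibitors, 14 were lower and 2 higher. Rela (p65) was at 67.7 and 75.5 CPM in WT and 36.2 and 40.5 CPM in KO (log2 fold change -0.87 ± 0.08). Ikbkb and Ikbkg, which encode subunits of the kinase complex upstream of it, fell by 0.60 and 0.63. Tnfaip3 (A20), a feedback inhibitor, fell from 50.7 and 44.4 CPM to 22.9 and 27.3 CPM. Nfkb1 rose by 0.15, a change of 0.04 with the GC offset (adjusted p = 0.46). In the TGF-beta pathway 5 of 19 were higher and 5 lower (26.3% each), near the shares over all genes tested. Among the 5 that fell were Nrros, which holds latent TGF-beta (155 and 148 CPM in WT, 93.4 and 90.2 CPM in KO), and Smad7, the inhibitory SMAD (13.5 and 16.9 against 11.4 and 9.54 CPM). With DESeq2 the change of Smad7 did not pass (adjusted p = 0.055). Genes induced by glucocorticoids and genes of the circadian clock had the lowest median of the 41 lists plotted, -0.47, with 14 of 25 lower and 2 higher. Fkbp5, a glucocorticoid receptor chaperone, was at 194 and 204 CPM in WT and 63.3 and 66.7 CPM in KO (-1.59 ± 0.06, adjusted p = 6.0e-22). Tsc22d3 (GILZ) fell from 599 and 606 CPM to 384 and 415 CPM and Ddit4 (REDD1), an inhibitor of mTORC1, from 95.7 and 83.3 CPM to 43.7 and 37.8 CPM. Txnip, a brake on glucose uptake, was a member that rose, from 299 and 300 CPM to 345 CPM in both KO libraries.

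Of 25 genes of glucose uptake and glycolysis, 16 were lower and 5 higher, with a median log2 fold change of -0.28. Slc2a3 (GLUT3), a glucose transporter, was at 217 and 223 CPM in WT and 121 and 114 CPM in KO (-0.94 ± 0.05, adjusted p = 1.4e-17). Pkm (pyruvate kinase) fell from 315 and 301 CPM to 172 and 173 CPM, Pfkl (phosphofructokinase) from 87.7 and 86.2 CPM to 32.0 and 40.4 CPM, and Hk1 (hexokinase) by 0.94. Slc1a5 (ASCT2), the glutamine transporter, fell from 139 and 138 CPM to 53.5 and 52.4 CPM (-1.40 ± 0.06, adjusted p = 4.1e-20), and Slc3a2, the CD98 heavy chain, from 201 CPM in both WT libraries to 148 and 149 CPM. Among 37 genes of Myc, ribosome biogenesis and nutrient transport, 12 were lower and 9 higher (32.4% and 24.3%), near the shares over all genes tested. Max, the partner of Myc, fell by 0.93. Of 37 ATF4 target, tRNA synthetase and unfolded protein response genes, 16 were lower and 6 higher, and Aars (alanyl-tRNA synthetase) fell from 43.2 and 40.4 CPM to 16.6 and 21.5 CPM. Of 29 genes of cholesterol and fatty acid synthesis, 10 were lower and 6 higher, among them Acly, which makes cytosolic acetyl-CoA, and Dhcr7, the last enzyme of cholesterol synthesis, which fell by 0.57 and 0.81.

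Of 78 nuclear-encoded subunits of the respiratory complexes, 50 were higher and 5 lower, with a median log2 fold change of 0.25. Sdhb, of complex II, was at 430 and 414 CPM in WT and 584 and 583 CPM in KO (0.47 ± 0.04). Ndufv2, of complex I, rose by 0.53 and Atp5o, of the ATP synthase, by 0.55. Cyc1 (cytochrome c1) was a member that fell, from 129 and 121 CPM to 99.9 and 101 CPM, and with the GC offset its change was 0.04 (adjusted p = 0.52). All 8 mitochondrially encoded proteins tested were higher, or 5 with the GC offset, mt-Co1 from 1136 and 1129 CPM to 1647 and 1570 CPM. Of 76 mitochondrial ribosome genes 43 were higher and 6 lower, with Mrps14 and Mrpl32 higher by 0.54 and 0.63. Of 81 cytosolic ribosomal protein genes 60 were higher and 4 lower, with a median of 0.29. Rps4x was at 150 and 140 CPM in WT and 240 and 227 CPM in KO, Rps14 rose by 0.54, and Rps29 was a member that fell (38.5 and 35.5 against 25.1 and 26.4 CPM). Multiple copies of ribosomal protein genes make their counts uncertain. Of 42 proteasome subunits 28 were higher and 4 lower, among them Psmb6, from 384 and 367 CPM to 553 and 524 CPM, and Psma4. These lists hold short genes, and the shortest sixth of all genes had a median of 0.21; with an offset for gene length the medians were 0.12 for ribosomal proteins, 0.09 for the respiratory complexes and 0.16 for the proteasome. The counts with that offset were 39 higher and 14 lower for ribosomal proteins, 32 and 15 for the respiratory complexes and 27 and 6 for the proteasome. For mt-Co1 and Mrps14 the GC offset gave changes of 0.31 and 0.34.

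**Figure D4:**
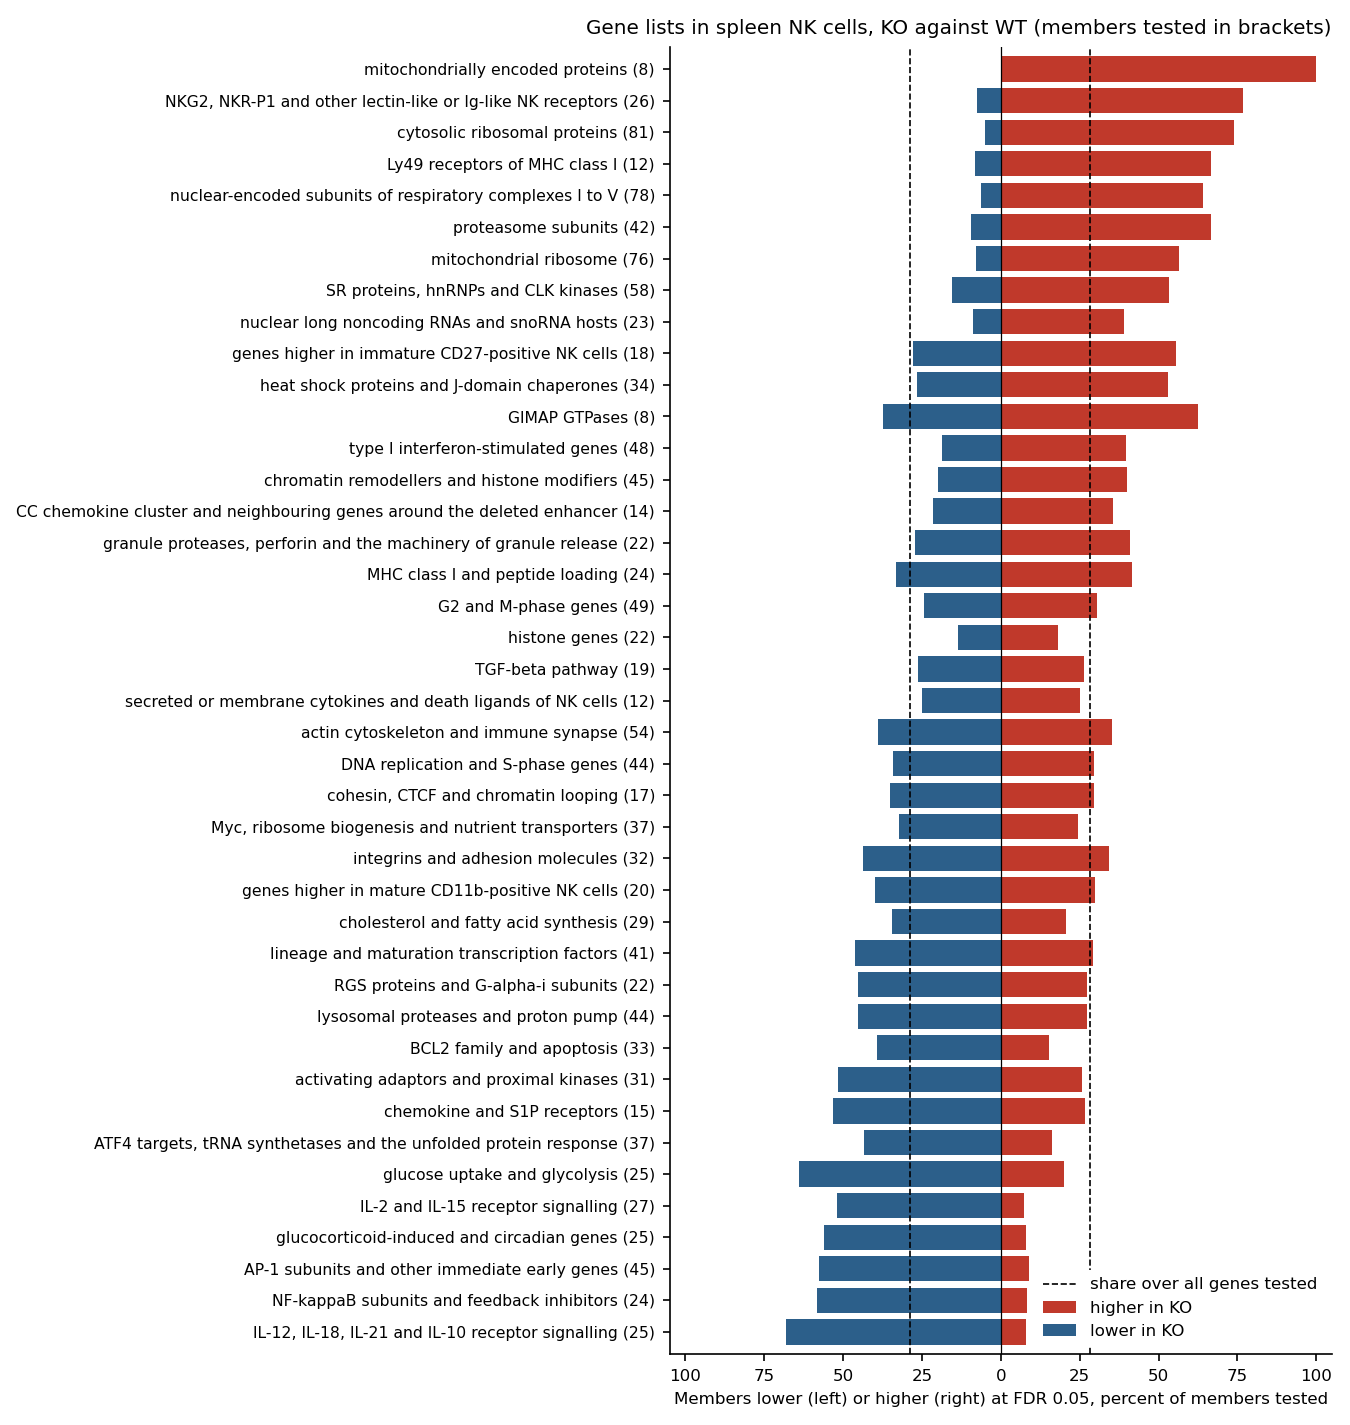
Share of the tested members of 41 gene lists that were higher (right, red) or lower (left, blue) in KO at an FDR of 0.05, with the shares over all 12595 genes (28.2% and 28.9%) as dashed lines. Mitochondrial, ribosomal, NK receptor and proteasome lists lie at the top, and cytokine signalling, NF-kappaB and AP-1 lists at the bottom.

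Of 24 genes of MHC class I presentation, 10 were higher and 8 lower. Tap2, a subunit of the peptide transporter, was at 126 and 117 CPM in WT and 44.7 and 45.1 CPM in KO (log2 fold change -1.41 ± 0.07, adjusted p = 1.0e-19), its partner Tap1 at 86.4 and 89.7 against 58.1 and 55.5 CPM, and Tapbp (tapasin) fell by 0.66. Of the classical heavy chains, H2-D1 fell from 4051 and 3948 CPM to 2549 and 2495 CPM (-0.67 ± 0.03) and H2-K1 from 2635 and 2598 CPM to 2141 and 2078 CPM. B2m, the shared light chain, rose from 5782 and 5655 CPM to 7203 and 7071 CPM (0.32 ± 0.04), as did the chaperone Canx and the nonclassical heavy chain H2-M3, by 0.39 and 0.46. With the GC offset the changes of H2-K1, B2m and Canx were -0.19, 0.15 and 0.24, and with the length offset that of B2m was 0.06 (adjusted p = 0.078). The heavy chains are near copies of each other, which makes their single counts uncertain. Among 48 type I interferon-stimulated genes 19 were higher and 9 lower, but 13 and 14 with the GC offset. Stat2 and Irf7, factors of the interferon response, fell, Stat2 from 27.7 and 28.0 CPM to 9.14 and 9.77 CPM (-1.53 ± 0.12). Oasl1 was seen with 21 and 33 reads in WT and with 0 and 1 read in KO. Ifi47, an interferon-induced GTPase, rose from 496 and 513 CPM to 645 and 648 CPM.

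Of 44 DNA replication genes 15 were lower and 13 higher, and of 49 genes of G2 and M phase 12 were lower and 15 higher (13 and 12 with the GC offset). These were 34% and 30% for replication and 24% and 31% for G2 and M, near the shares over all genes tested. Mcm5 and Mcm2, subunits of the replicative helicase, fell by 0.95 and 0.88, Mcm5 from 73.2 and 71.3 CPM to 33.0 and 38.0 CPM, and Dnmt1, the maintenance methyltransferase, fell by 0.79. Melk, a mitotic kinase, was at 5.50 and 5.37 CPM in WT and 0.326 and 1.15 CPM in KO, and Ncapg, a condensin subunit, fell by 1.26. Slbp, which binds histone mRNA, and Hmgb2 rose by 0.42 and 0.41. Among 22 histone genes 4 were higher and 3 lower (18.2% and 13.6%), below the shares over all genes tested. H2afx was lower (67.7 and 57.4 against 32.3 and 28.7 CPM) and H3f3b higher (1992 and 1990 against 2678 and 2585 CPM). The GC offset gave changes of 0.21 for Hmgb2, -0.70 for H2afx and 0.26 for H3f3b.

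Of 58 splicing factor genes 31 were higher and 9 lower, and 20 and 20 with the GC offset. Luc7l3 rose by 0.55 and Ewsr1 fell by 0.70. Malat1, an abundant nuclear noncoding RNA, was at 3479 and 3305 CPM in WT and 6195 and 5710 CPM in KO (log2 fold change 0.81 ± 0.04, adjusted p = 2.0e-17), and 9 of 23 nuclear noncoding and snoRNA host genes were higher and 2 lower. Cohesin and CTCF genes, which hold chromatin loops, were 5 higher and 6 lower of 17 (29.4% and 35.3%), near the shares over all genes tested. Smc3, Nipbl and Wapl rose by 0.40, 0.32 and 0.38, and Mau2 fell by 0.53. Ctcf was at 120 and 115 CPM in WT and 117 and 125 CPM in KO and did not pass the test (adjusted p = 0.23). Of 45 chromatin regulators 18 were higher and 9 lower, Smarce1 higher by 0.45 and the methyltransferase Kmt2c lower (142 and 146 against 98.9 and 96.3 CPM). Smc3, Nipbl, Wapl and Smarce1 had changes of 0.24, 0.17, 0.21 and 0.25 with the GC offset.

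Of 54 actin and synapse genes 21 were lower and 19 higher. Arhgdia, a regulator of the actin cytoskeleton, was at 197 and 189 CPM in WT and 111 and 101 CPM in KO (log2 fold change -0.90 ± 0.05), and Was, whose loss causes Wiskott-Aldrich syndrome, fell by 0.88. Tmsb4x (thymosin beta 4), which binds actin monomers, rose from 13465 and 12641 CPM to 18539 and 17321 CPM, and Gmfg and Capg rose by 0.59 and 0.86. Of 33 BCL2 family and apoptosis genes 13 were lower and 5 higher, with the survival factor Bcl2l1 (78.2 and 77.8 against 41.5 and 41.9 CPM) and its opponent Bak1 both lower and Casp1 higher by 0.45. Of 8 GIMAP GTPases, which act in lymphocyte survival, 5 were higher and 3 lower, Gimap6 from 2276 and 2304 CPM to 3168 and 3097 CPM and Gimap3 from 1184 and 1213 CPM to 996 and 1001 CPM. Lysosomal genes were 20 lower and 12 higher of 44, with Npc1, the lysosomal cholesterol exporter, lower (46.2 and 49.3 against 18.61 and 22.98 CPM), as was Psap, prosaposin (482 and 511 against 328 and 309 CPM). RGS and G protein genes were 10 lower and 6 higher of 22, with Rgs14 lower (30.2 and 33.3 against 17.3 and 13.2 CPM). Heat shock and chaperone genes were 18 higher and 9 lower of 34, with Hsp90aa1 and Chordc1 higher by 0.41 and 0.61 and Hspa4 lower (151 and 153 against 90.1 and 107 CPM). With the GC offset the changes of Arhgdia, Casp1 and Chordc1 were -0.58, 0.28 and 0.38, and with the length offset that of Tmsb4x was 0.20.

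Beyond the lists, the smallest p-values among genes that fell included B4galt5, which makes lactosylceramide (336 and 345 CPM in WT, 156 and 163 CPM in KO), Adora2a, the adenosine receptor that restrains lymphocytes (108 and 103 against 39.8 and 39.5 CPM), Cyth4 (419 and 427 against 232 and 225 CPM) and Efhd2 (815 and 794 against 450 and 455 CPM). Among genes that rose they included Stard4, a carrier of cholesterol between membranes, at 40.5 and 42.9 CPM in WT and 118 and 121 CPM in KO (log2 fold change 1.52 ± 0.07, adjusted p = 4.1e-20). As3mt, Calm2, Frg1, Sub1 and AW112010 rose by between 0.54 and 0.70. The largest changes at a mean of at least 10 CPM in the higher genotype were of scarcer mRNAs. Cables1, which binds cyclin-dependent kinases, was at 1.25 and 1.99 CPM in WT and 15.3 and 13.9 CPM in KO (3.00 ± 0.23), Tspan6 at 3.50 and 1.75 against 13.1 and 10.8 CPM, and Camk4, a calmodulin-dependent kinase, at 7.49 and 6.89 against 24.2 and 19.2 CPM (1.49 ± 0.15). Cacnb4, a calcium channel subunit, and Impact, a regulator of the kinase GCN2, rose by 1.51 and 1.16. Rab4a, a GTPase of receptor recycling, was at 14.7 and 16.0 CPM in WT and 0.979 and 0.766 CPM in KO (-4.27 ± 0.25, adjusted p = 1.0e-16). Ppm1l, a phosphatase, was at 12.2 and 10.9 against 0.326 and 1.76 CPM and Tab1, an activator of the kinase TAK1, at 9.49 and 11.6 against 2.94 and 2.34 CPM. Genes with the smallest p-values were named only where both KO libraries lay on one side of both WT libraries, as they did above WT for 36.4% and below WT for 37.4% of all genes tested.

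Immunoglobulin transcripts of B cells and plasma cells differed as well. Igha had 56 and 90 reads in WT and 0 in both KO libraries, at least 113-fold lower by a floor of 3 reads over the group. Jchain, the joining chain of secreted antibody, fell from 21.2 and 21.3 CPM to 10.1 and 8.23 CPM, and Cd22, a B cell surface protein, fell by 1.35. Ighd rose from 15.2 and 14.3 CPM to 27.7 and 26.8 CPM and Cd74, the invariant chain, from 289 and 297 CPM to 421 and 408 CPM. Over 17 B cell markers tested, 7 were higher and 3 lower. The pseudogenes Gm5526 and Gm1821 also passed the call, but each was high in a single library, WT library 2, with 331 and 408 reads against 0 and 8 in WT library 1; without that library their log2 fold changes were 1.70 and 0.45 and neither passed.

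Lung NK cells of the same genotypes showed mostly other changes. The KO effect differed between spleen and lung for 7753 genes (61.6%) in a test of the difference itself, within 1 fit of all 8 libraries that share no control library between organs. Of 4367 genes called in both organs, 3402 changed in opposite directions and 965 in the same direction. Ccl5 was an exception, at -2.61 ± 0.04 in lung against -2.67 ± 0.04 in spleen (adjusted p of the difference 0.42). Ccl9 (1.44 in lung), Ccl6 (1.30), Stard4 (1.59), Camk4 (1.69), Cables1 (2.28) and Capg (0.85) were likewise higher in lung, with no difference between organs that passed the test. Heatr9 was lower in both, by less in lung (-1.91, adjusted p of the difference 0.04). Many lists, though not all, had the opposite balance in lung. There, where 29.2% of all genes were called higher and 26.4% lower, 31 of 45 immediate early genes were higher and 2 lower, 9 of 12 Ly49 genes were lower and none higher, and 48 of 78 respiratory subunits were lower and 9 higher. Granule genes (10 higher, 4 lower) and heat shock genes (17, 7) were more often higher than lower in lung, as in spleen. For granule genes in spleen the counts were 8 and 8 with the GC offset. Their summed level fell in lung, from 49980 and 48610 CPM in WT to 39350 and 39790 CPM in KO. In spleen it rose, from 33110 and 32390 CPM to 44250 and 41910 CPM. Of 81 ribosomal protein genes, 20 were higher and 11 lower in lung. Their median log2 fold change was 0.008 in lung and 0.29 in spleen. Klf2 and Tbx21, lower in spleen, were higher in lung by 1.21 and 1.13, and Prf1 and Il2rb by 0.74 and 1.21. Gzma and Nkg7, higher in spleen, were lower in lung by -0.46 and -0.51. Of the 659 genes past the stricter call that were lower in spleen, 315 were called higher in lung. The trend with GC content also turned, with a Spearman correlation of 0.29 in lung, and with the GC offset 7406 genes still differed between the organs.

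**Figure D5:**
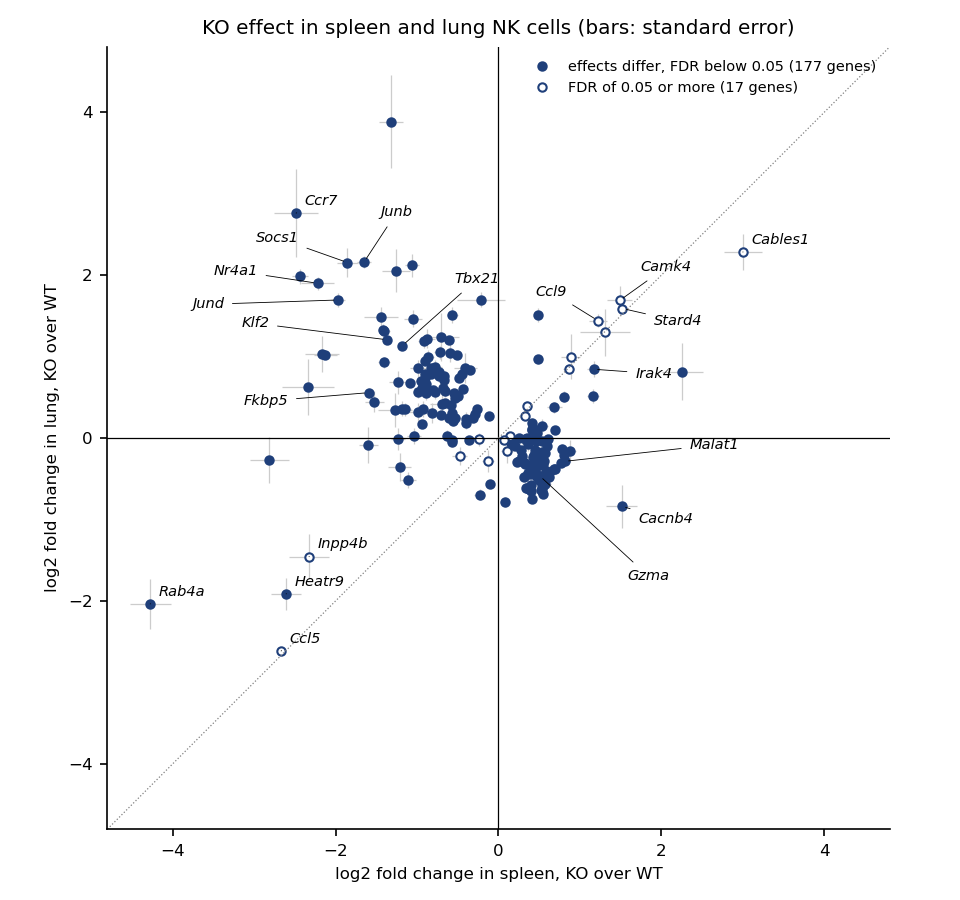
Log2 fold change, KO over WT, in spleen and in lung for 194 of the 200 genes examined singly (6 lie outside the axes), with standard errors as bars; filled points differ between the organs at an FDR of 0.05. Ccl5, Ccl9, Stard4 and Camk4 lie on the diagonal, whereas Klf2, Tbx21, Junb and Socs1 lie at the upper left, lower in spleen and higher in lung.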

How the data were processed

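RNA of freshly sorted NK cells was sequenced as reads of 50 bp (NEBNext Ultra, HiSeq2500). The authors aligned reads to mm10 with HISAT2 2.1.0 and deposited HTSeq 0.11.1 read counts per gene symbol, without normalization (versions per the submitters' processing notes); annotation and strand setting are not given in the sources used here. HTSeq's 5 summary rows were dropped: of uniquely aligned reads, 45.1% to 46.6% fell on genes in spleen. Groups came from the sample titles. All 8 libraries entered edgeR 4.0.16 (TMM factors, filterByExpr, 1 mean per group, quasi-likelihood test, R 4.3.3), the spleen KO and WT groups were contrasted, and p-values were adjusted by Benjamini-Hochberg over 12595 of 48321 symbols. A call is an FDR below 0.05, and the stricter call an FDR below 0.001 with at least a 2-fold change. At these depths 3 reads correspond to 0.113 to 0.958 CPM in spleen, a limit of counting error only. Fitted folds use edgeR's default prior count. A prior count of 2 entered only the log2 CPM behind the offsets and the correlation of replicate deviations. Positions, GC content and length came from GENCODE M21 (GRCm38): 46394 symbols matched by name, 517 by an older symbol and 1410 did not match.

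The genes named are chosen members of the lists, in each direction the 12 genes with the smallest p whose KO libraries lay on one side of the WT libraries, the 10 with the largest change at 10 CPM or more, and up to 4 per list and direction; Gm11175 is named as the antisense partner of Jund. Not all are printed. The lists and tests were chosen with earlier results of these data known. The alternatives were DESeq2 1.42.0, the 4 spleen libraries alone, other scalings and filters, offsets for GC content and length (splines with 5 degrees of freedom), a replicate block, assumed coefficients of variation of 0.1 and 0.2, thinning of the spleen libraries to 3132963 reads, and leaving out each spleen library. Scripts were tested on simulated data.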

Additional observations from a re-analysis of the deposited data

Results flagged for a closer look

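The KO effect differed between spleen and lung for 7753 genes, by edgeR's test of the difference itself. Among the genes examined singly, those with reads in both spleen genotypes whose effects were called in opposite directions and differed by at least 8-fold are given here, with the difference on the log2 scale as spleen minus lung. Of the immediate early genes, the difference was -3.67 for Jund (-1.97 in spleen, 1.69 in lung), -4.42 for its antisense partner Gm11175, -3.81 for Junb (-1.65 and 2.16), -3.15 for Dusp1 (-2.13 and 1.02) and -4.12 for Nr4a1 (-2.22 and 1.90). Ccr7, the lymph node homing receptor, differed by -5.25 (-2.48 and 2.76) and Socs1, the cytokine signalling inhibitor, by -4.01 (-1.85 and 2.15). The mitotic gene Ncapg differed by -3.32, the histone gene H2afx by -3.18 and Tab1 by -3.20. The B cell and plasma cell genes Jchain and Cd22 differed by -5.21 and -8.18, where Cd22 was at 0 in both lung WT libraries, so that its fitted difference depends on the prior count. The pseudogene Gm1821 differed by -9.69, a value that rests on WT library 2 in spleen.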

How the results depend on the processing

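Ccl5 was lower under all 18 alternatives, by log2 fold changes of -2.97 to -2.58. Of 200 genes examined singly, 195 were called. Counting only the alternatives in which a gene was tested, 66 were called under every alternative. Leaving out the assumed coefficients of variation as well, 173 were. With at least 10 counts in every spleen library, 182 of the 200 were tested. The 7195 calls (3550 higher, 3645 lower) became 4165 (2046, 2119) with DESeq2, 4112 (1811, 2301) with an assumed coefficient of variation of 0.1, 1144 (360, 784) with 0.2, and 4448 to 7270 (2232 to 3563, 2216 to 3707) on leaving out 1 library, lowest without KO library 2. The 986 stricter calls (327 higher, 659 lower) became 376 (70, 306) with DESeq2, 415 (115, 300) with at least 10 counts in every spleen library, 342 (101, 241) with 0.2, 520 (137, 383) with libraries thinned to 1 depth, and 453 to 1056 (109 to 364, 344 to 692) on leaving out 1 library. Library totals called 41.2% of calls higher, against 49.3%, and moved the median of all genes by -0.065. The count of genes differing between organs, recomputed under alternatives chosen after seeing the data, was 2017 with 0.2 and 5316 to 8264 otherwise. Of 50 gene lists, 25 had more members higher than lower, but 5 with 0.2; the balance turned, among others, for the interferon-stimulated genes with the GC offset (13 higher, 14 lower), for splicing factors with the GC offset and replicate block (20, 21), for Myc and nutrient genes with the length offset (11, 10), for MHC class I on thinning (6, 7), for chromatin regulators with 0.1 (2, 3), for actin genes without KO library 2 (18, 16), for cholesterol synthesis without KO library 2 (6, 3), and with 0.2 for IL-12 and IL-18 signalling (1, 0), granule genes (0, 1) and immature NK genes (0, 2), chemokine ligands (0, 1) and NK markers (0, 1). Reversed values were -0.065 for Tyrobp with the length offset, -0.012, -0.011 and -0.046 for Gzmb with the GC offset, the GC offset with the replicate block and the length offset, 0.042 and 0.040 for Cyc1 with the first 2 of these, and 1.70 for Gm5526 and 0.45 for Gm1821 without WT library 2, the upper ends of ranges on leaving out 1 library that began at -10.14 and -4.12. The causes were not tested. WT and KO share replicate numbers, but nothing says that equal numbers pair the libraries, and their deviations correlated by 0.169 in spleen and -0.0139 in lung over 5103 genes. A replicate block gave 7298 calls and changed the call of 1 of the 200 genes, Gzmb, which passed with it (adjusted p = 0.024). The shallowest library, 3132963 reads, limits the calls of scarce mRNAs.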

Other observations

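Genes that passed the stricter call in both organs and in the same direction were few, 79 of 12595 (0.627%), and lay unevenly on the chromosomes. Chromosome and gene were looked at after the values were seen, and no test was made. Chromosome 18 held 6 of them among 284 genes tested (2.11%), although a smaller share of its genes passed the call in spleen (5.99%) than over all genes (7.83%). The 6 were Greb1l, Cables1, Mocos, Camk4, Stard4 and Hbegf, all higher in KO and all between positions 10325177 and 36515805 (GRCm38). Camk4 and Stard4, the latter a cholesterol carrier, are neighbours there, and their log2 fold changes were 1.49 and 1.52 in spleen and 1.69 and 1.59 in lung. Chromosome 14 had the next largest share, 7 among 425 (1.65%), and chromosome 12 held 4 among 411 (0.973%). Chromosome 11 held 10 among 1029 genes (0.972%), of which 6 lay between positions 83116849 and 83593087, the stretch that also holds the deleted enhancer. Beside Ccl5, Heatr9, Ccl9 and Ccl6 these were Slfn1, a Schlafen gene, at -1.52 in spleen and -1.67 in lung, and Gm11427, at -1.98 and -2.02. The WT and KO lines were bred separately, and whether they differ in sequence in these stretches was not tested.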
